A study of Mus musculus with 3 samples.

Results

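Enteroendocrine cells, the hormone-secreting cells of the gut lining, were followed in the small intestine of wild-type, untreated mice at 3 ages. They were selected on measured counts: at least 3 unique molecular identifiers (UMIs, each standing for 1 captured RNA molecule) of Epcam, an epithelial adhesion protein, at least 5 of Chga and Chgb together, which encode the chromogranins of hormone granules, and fewer than 5 of Muc2, the mucin of goblet cells. The rule found 346 of 28436 cells, namely 38 of 8447 at E15.5 and 93 of 11598 at E17.5, which are embryonic days, and 215 of 8391 at P7, a week after birth. Each age was 1 library (10x Genomics Chromium, chemistry 3′ v2), so there is no test between ages and the values below are set side by side. Whole small intestines had been split into epithelium and mesenchyme, recombined and sorted for viable cells that were Epcam-positive, or negative for Epcam, CD31 and CD45 together. The sort fixed the share of epithelial cells. Strain, sex and how many mice went into a library are not stated in those sources that could be used.

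Enteroendocrine cells arise from epithelial progenitors that switch on the transcription factor Neurog3 under control of Notch signalling, and then express Neurod1, Insm1, Pax6 and other factors as they mature. They store peptide hormones or serotonin in dense granules and release them in response to nutrients, and single cells commonly make more than 1 hormone. The classical names of the types follow the hormone: secretin (S cells), cholecystokinin (I), glucose-dependent insulinotropic peptide (K), ghrelin (X), glucagon-like peptides and peptide YY (L), neurotensin (N), somatostatin (D) and serotonin (enterochromaffin cells).

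Of the cells with at least 3 Epcam UMIs, the enteroendocrine cells made up 2.65% (38 of 1435, exact 95% Clopper-Pearson interval 1.88 to 3.62%) at E15.5, 5.55% (93 of 1677, 4.50 to 6.75%) at E17.5 and 3.38% (215 of 6363, 2.95 to 3.85%) at P7. All intervals here cover counting error only, and not the spread between animals or sorts. They were shallower than the rest of the epithelium, with median depths of 10417.5, 8721 and 7622 UMIs per cell, against 21469.5, 17392 and 16537 UMIs in Epcam cells that had neither marker. Chgb carried most of the rule: its median was 72, 88 and 128 UMIs per enteroendocrine cell, against 3.5, 5 and 18 UMIs of Chga, and Muc2 never exceeded 2 UMIs in any of them. At the edge of the rule, the 4, 3 and 8 cells with 5 to 7 chromogranin UMIs held a hormone gene at 10 or more UMIs in 4, 2 and 3 cases, and the 11, 11 and 67 Epcam cells with 2 to 4 such UMIs did so in 6, 8 and 4. Below the Epcam limit lay 131, 279 and 136 further cells with 5 or more chromogranin UMIs, and 114, 238 and 102 of them had at least 10 UMIs of enteric neuron genes.

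Other RNA was present in some of the selected cells. By fixed limits on neuron, mesenchyme, haemoglobin, enterocyte and acinar genes, 9, 21 and 37 enteroendocrine cells carried RNA of another cell type. Neuron RNA marked 4, 4 and 9 of them, mesenchyme RNA 4, 13 and 8, and enterocyte RNA 0, 3 and 27. The limits on summed UMIs were 10 for neuron, mesenchyme and acinar genes, 100 for haemoglobin and 50 for enterocyte genes. Leaving these cells out, as was done below, removes RNA of those same genes by construction. The 13 enteric neuron genes listed, some of which endocrine cells also use, summed to 923, 692 and 1038 CPM (counts per 1000000 UMIs of the summed cells), against 58.8, 51.0 and 43.4 CPM in the other Epcam cells, with a median of 2, 1 and 1 UMIs per enteroendocrine cell. Scrublet, a doublet caller, marked 2, 7 and 13. The 10 tuft cell markers summed to 16, 12 and 62 UMIs in all enteroendocrine cells of a library, and of them Sh2d6, Rgs13, Il25 and Gfi1b were at 0 in all 3. The barcode names were the same 8447 in every library and do not match the numbers of cells at E17.5 and P7, so they were not used. No cell had identical counts in 2 libraries.

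Sct, the secretin gene, was the most widespread hormone gene and was not used to choose the cells. It reached 10 or more UMIs in 31 of 38 cells at E15.5 (81.6%, 65.7 to 92.3%), 84 of 93 at E17.5 (90.3%, 82.4 to 95.5%) and 113 of 215 at P7 (52.6%, 45.7 to 59.4%). Cck, which encodes cholecystokinin, did so in 23, 57 and 76 cells, or 60.5%, 61.3% and 35.3%. The median cell held 53.5, 108 and 10 UMIs of Sct and 16, 22 and 4 of Cck. Thinned to 4000 UMIs per cell, which left out 0, 7 and 22 shallower cells, the Sct shares were 65.8%, 79.1% and 41.5% and the Cck shares 36.8%, 51.2% and 28.5%.

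The sequence just before the start of a hormone gene can carry sites for the factors named above, and 4 of these windows are shown because Sct was found together with Cck and Gip in most of their cells, while Sst and Cck rarely met. Each is the 250 bases before the RefSeq start (GRCm38.p6), read 5′ to 3′ on the gene's strand: Sct chr7:141279134-141279383 (minus), Cck chr9:121495695-121495944 (minus), Gip chr11:96024295-96024544 (plus) and Sst chr16:23890845-23891094 (minus). Capitals mark CANNTG, the E-box that Neurog3, Neurod1 and related factors bind, TGACGTCA, the cyclic AMP response element, and TATAAA, searched on both strands. No match overlaps another in the windows printed, though CAGCTG, counted apart below, is 1 form of CANNTG.
Sct: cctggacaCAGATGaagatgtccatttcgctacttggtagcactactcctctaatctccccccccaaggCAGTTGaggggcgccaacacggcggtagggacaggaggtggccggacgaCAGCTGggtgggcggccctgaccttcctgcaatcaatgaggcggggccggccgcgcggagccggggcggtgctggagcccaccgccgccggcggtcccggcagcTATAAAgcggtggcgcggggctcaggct
Cck: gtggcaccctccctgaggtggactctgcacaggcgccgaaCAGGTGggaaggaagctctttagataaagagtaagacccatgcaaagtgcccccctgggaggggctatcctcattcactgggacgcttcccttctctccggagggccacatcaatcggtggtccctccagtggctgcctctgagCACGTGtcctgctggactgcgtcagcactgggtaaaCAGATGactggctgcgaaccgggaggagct
Gip: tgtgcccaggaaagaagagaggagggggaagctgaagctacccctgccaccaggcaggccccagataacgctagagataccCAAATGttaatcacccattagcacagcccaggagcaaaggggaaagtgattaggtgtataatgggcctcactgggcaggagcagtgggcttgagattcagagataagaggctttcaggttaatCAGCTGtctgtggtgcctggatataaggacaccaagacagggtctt
Sst: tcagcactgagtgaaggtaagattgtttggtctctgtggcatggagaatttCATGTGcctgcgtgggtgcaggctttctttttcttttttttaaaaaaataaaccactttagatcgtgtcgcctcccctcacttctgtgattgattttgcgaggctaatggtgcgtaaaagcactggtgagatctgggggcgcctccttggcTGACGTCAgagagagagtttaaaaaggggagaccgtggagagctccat
Sct and Cck held 3 E-boxes each, Gip held 2 and Sst held 1. Of 32841 RefSeq windows of the same length, 66.2% had a CANNTG, 1.55% a TGACGTCA and 12.4% a TATAAA. TGACGTCA was found in the Sst window, at 48 to 41 bases before the start, and TATAAA in that of Sct, at 28 to 23 bases. The E-box CAGCTG, present in 13.0% of windows, occurred in Sct and Gip. A match only says that these letters are there.

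Ghrl, encoding the appetite hormone ghrelin, reached 10 UMIs in 11, 34 and 28 cells, or 28.9% (15.4 to 45.9%), 36.6% (26.8 to 47.2%) and 13.0% (8.83 to 18.3%). Pyy, for the satiety peptide PYY, did so in 14, 24 and 62 cells, or 36.8%, 25.8% and 28.8%. Gip, for the incretin of the K cell, was found at that level in 1, 22 and 30 cells, or 2.63% (0.0666 to 13.8%), 23.7% (15.46 to 33.6%) and 14.0% (9.62 to 19.3%). Among Gip cells the median was 19, 311 and 1009.5 UMIs, and at P7 the highest held 3613. Gip was therefore rare at E15.5 and abundant in the cells that had it at both later ages.

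Gcg, the source of the glucagon-like peptides, passed 10 UMIs in 2, 11 and 20 cells (5.26%, 11.8% and 9.30%). Nts, the neurotensin gene, did so in 0, 12 and 25 cells (12.9% at E17.5 and 11.6% at P7). At E15.5 Nts had 0 UMIs in 38 cells, which by the limit of 3 counts allows a share of up to 7.89% of cells with an Nts UMI at this depth and sets no limit on cells that express the gene, and 64 Nts UMIs lay elsewhere in that library. Sst, the gene of the inhibitory hormone somatostatin, did so in 2, 8 and 8 cells (5.26%, 8.60% and 3.72%). The 8 Sst cells at E17.5 and the 8 at P7 held at least 390 and 620 Sst UMIs each, so their number does not hang on the limit of 10. Tac1, the substance P gene, which enterochromaffin cells also use, passed in 7, 13 and 49 cells (18.4%, 14.0% and 22.8%).

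Tph1, whose enzyme makes serotonin in the gut, passed 10 UMIs in 2, 9 and 50 cells, or 5.26% (0.644 to 17.7%), 9.68% (4.52 to 17.6%) and 23.3% (17.8 to 29.5%). With at least 1 UMI the counts were 5, 29 and 106 cells. Thinned to 4000 UMIs per cell, 0%, 6.98% and 13.0% of the cells passed 10 Tph1 UMIs, and 10.5%, 25.6% and 43.5% had at least 1. Iapp, the amylin gene, passed in 0, 10 and 8 cells and Cartpt, for the CART peptide, in 1, 0 and 19.

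The remaining hormone genes were rare at this level. Gal passed in 1, 2 and 3 cells. Ppy and Insl5 each passed in 2 cells at P7 and in none before, Gast in 1 cell at E15.5, and Penk and Ucn3 in 1 cell each at P7. Nmb passed in no cell of any library. Ins1 had 0 UMIs in all 346 cells, while Ins2 had 0, 9 and 0.

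**Figure D1:**
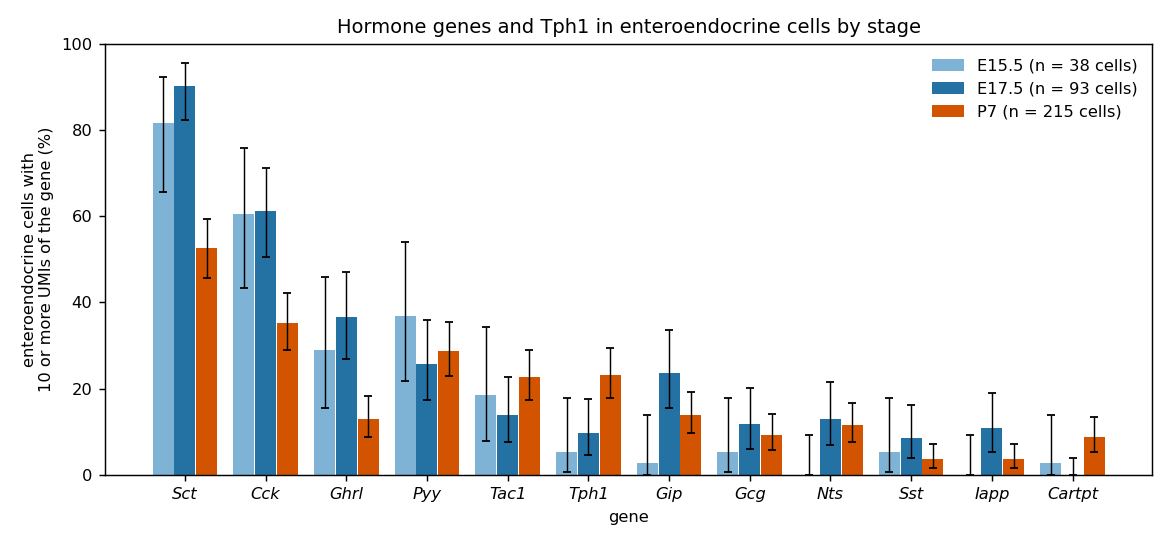
Share of enteroendocrine cells (y axis, %) with 10 or more UMIs of each gene (x axis), with a bar for each of E15.5 (38 cells), E17.5 (93) and P7 (215) and exact 95% Clopper-Pearson intervals as error bars. Sct and Cck lead at every age, Gip goes 2.63%, 23.7% and 14.0%, and Tph1 5.26%, 9.68% and 23.3%.

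Few Epcam cells outside the rule passed 10 UMIs of a hormone gene, but Sct was shared with goblet-type cells (Epcam at least 3, Muc2 at least 5, chromogranins under 5). Sct passed 10 UMIs in 31 of 38 enteroendocrine, 33 of 33 goblet-type and 84 of 1364 other Epcam cells at E15.5. At E17.5 these counts were 84 of 93, 166 of 205 and 64 of 1377, and at P7 113 of 215, 136 of 718 and 29 of 5420. Summed over the cells of a group, Sct stood at 5536, 24729 and 9817 in enteroendocrine cells, at 7065, 1858 and 528 in goblet-type cells and at 241, 92.4 and 27.7 CPM in other Epcam cells. At E15.5 the level was thus lower in enteroendocrine than in goblet-type cells, and at both later ages it was higher. Cck, by contrast, passed 10 UMIs in 0 goblet-type cells of any age and in 4, 9 and 3 other Epcam cells. Ghrl passed in 16 other Epcam cells at E15.5 and in 5 and 1 at E17.5 and P7, and each of the other hormone genes in at most 4 other Epcam and 3 goblet-type cells. Below that limit Iapp was shared too. At E15.5 it was found in 39.4% of goblet-type and 18.4% of enteroendocrine cells, at 108 against 20.6 CPM. At E17.5 it was found in 23.9% and 25.8%, at 58.9 against 371 CPM, and at P7 in 0.418% and 6.51%.

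**Figure D2:**
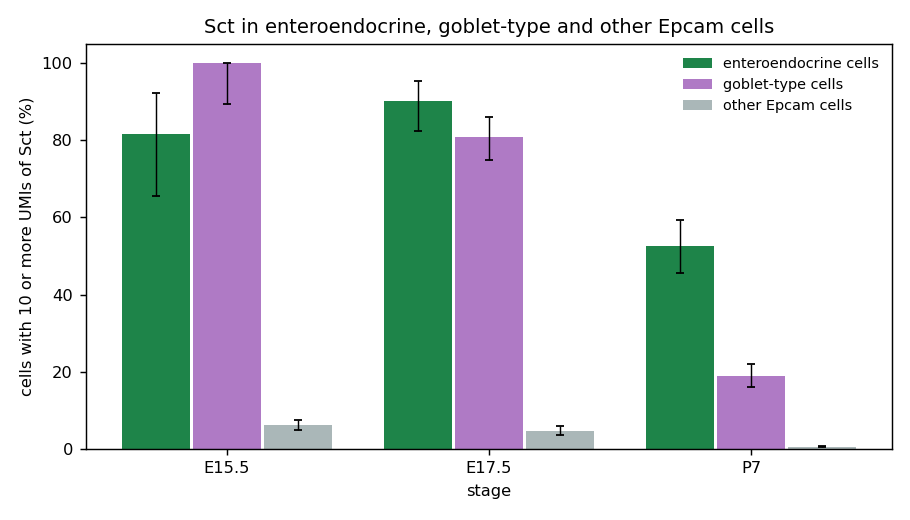
Share of cells (y axis, %) with 10 or more Sct UMIs in enteroendocrine, goblet-type and other Epcam cells at each age (x axis), with exact 95% Clopper-Pearson intervals. Enteroendocrine cells stand at 81.6%, 90.3% and 52.6%, goblet-type cells at 100%, 81.0% and 18.9%, and other Epcam cells at 6.16%, 4.65% and 0.535%.

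Levels and shares of the hormones did not always move together. From the CPM of all enteroendocrine cells of a library, 9 of the 14 hormone genes, of 20 listed, that could be compared rose by 2-fold or more at E17.5 relative to E15.5 and Cartpt fell, the median log2 ratio being 1.86. A gene was compared when the cells of the higher library held 30 or more of its UMIs, and ratios are of CPM + 10. Over all genes, 5.93% of 4382 were 2-fold higher at this step and 2.42% lower, with a median of -0.06. Sst stood at 7106 against 262 CPM, Gip at 10192 against 56.1, Cck at 14897 against 2126 and Iapp at 371 against 20.6 CPM in E17.5 and E15.5 cells. At E15.5, 1 cell held 92.1% of the Sst UMIs, 63.3% of those of Gip and 83.3% of those of Gcg, which rose too. For Cck and Iapp the highest cell held 16.7% and 27.3%. Nts stood at 2222 CPM at E17.5, at least 396-fold above the E15.5 level that 3 UMIs would give. Cartpt fell to 18.2 CPM at E17.5, against 166 CPM at E15.5, where 82 of its 89 UMIs were in 1 cell that also held RNA of another cell type, and without such cells Cartpt was not called.

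At the next step 7 of 17 hormone genes rose by 2-fold or more at P7 relative to E17.5 and 3 fell, beside 4.98% higher and 2.29% lower among 7686 genes. The medians were 0.50 for the hormones and 0.16 for all genes. Pyy stood at 8889 against 1686 CPM, Nts at 8863 against 2222 and Gcg at 2492 against 1216 CPM in P7 and E17.5 cells. Ppy, Insl5, Cartpt and Penk were the other genes that rose. Ppy had 1444 UMIs in 5 P7 cells against 1 UMI at E17.5, and 965 of them lay in 1 cell. Insl5 had 145 UMIs at P7, 128 of them in 1 cell, against 5 at E17.5. Penk had 52 UMIs at P7, 35 of them in 1 cell, against 2 at E17.5. Sct fell to 9817 CPM at P7, against 24729 at E17.5, and Ghrl to 2016, against 11286 CPM, while Gast had 20 UMIs against 39. Without cells that carried other RNA, Gcg, Penk and Gast were not called, and Gip was called higher, and Gcg was not called without Scrublet-marked cells either. Gip stood at 14453 against 10192 CPM although its share was lower at P7, and Sct and Cck had a lower share but a higher CPM at P7 than at E15.5, so no order is read from either measure in those pairs.

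The hormone genes together made up 1.42%, 7.44% and 6.64% of the UMIs of the enteroendocrine cells. In the median cell they made up 1.26%, 5.57% and 1.13%, and in the highest cell 6.23%, 32.3% and 51.1%. The P7 cells thus had a low median beside cells in which hormone RNA filled more of the UMIs than in any earlier cell. A highest value also depends on the number of cells, here 38, 93 and 215, so the spread is not compared between ages.

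Most cells of E15.5 and E17.5, and a smaller share at P7, held RNA of several hormones. At least 2 of the 20 hormone genes passed 10 UMIs in 31 of 38 cells at E15.5 (81.6%, 65.7 to 92.3%), 79 of 93 at E17.5 (84.9%, 76.0 to 91.5%) and 122 of 215 at P7 (56.7%, 49.8 to 63.5%). With 5 UMIs as the limit, the P7 share was 75.8%. At least 4 passed in 8, 37 and 56 cells. None passed in 2, 3 and 40 cells, and of the 40 at P7, 33 had at least 1 Sct UMI, 21 at least 1 Tph1 UMI and 8 at least 2 Neurog3 UMIs. Their median was 111.5 chromogranin UMIs. Over all enteroendocrine cells at P7, 89.3% had at least 1 Sct UMI and 49.3% at least 1 Tph1 UMI. At least 2 Neurog3 UMIs were found in 15 of 215. The Sct and Tph1 counts of the 40 cells thus lay near the general shares.

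Some pairs were near complete and others were rare or not seen. Cck cells were almost all Sct cells: 21 of 23, 57 of 57 and 66 of 76. Sct passed in 81.6%, 90.3% and 52.6% of all enteroendocrine cells. Overlap with Sct at E15.5 and E17.5 thus lay near the share of any enteroendocrine cell. All 12 Nts cells at E17.5 passed for Sct and Cck, and at P7 all 25 passed for Sct and 23 for Cck. Cck passed in 61.3% of all enteroendocrine cells at E17.5 and 35.3% at P7. Of 20 Gcg cells at P7, 19 passed for Pyy, while 6 of 11 did at E17.5, beside 28.8% and 25.8% of all enteroendocrine cells. In the other direction, Tac1 passed in 0 of the 22 Gip cells at E17.5 and 0 of the 30 at P7. It also passed in 0 of the 34 Ghrl cells at E17.5 and 0 of the 28 at P7, against 1 of 11 at E15.5, and in 0 of the 8 Sst cells of each later age. Over all enteroendocrine cells Tac1 passed in 14.0% at E17.5 and 22.8% at P7. With 8 Sst cells, a count of 0 is not far from those shares.

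Sst cells also held Iapp RNA. All 8 Sst cells at E17.5 and all 8 at P7 passed 10 UMIs of Iapp, which passed in 10 and 8 cells. At E17.5 all 8 Sst cells also passed for Ghrl and for Sct, and 1 for Cck. At P7, 7 of the 8 passed for Ghrl, 7 for Pyy, 2 for Sct and 0 for Cck. Over all enteroendocrine cells at E17.5, Ghrl passed in 36.6%, Sct in 90.3% and Cck in 61.3%. The Sct overlap at that age thus lay near the share of any enteroendocrine cell. At P7 the shares were 13.0% for Ghrl, 28.8% for Pyy, 52.6% for Sct and 35.3% for Cck. With 8 Sst cells these overlaps are counts only.

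Tph1 cells overlapped with Tac1 in 2 of 2, 4 of 9 and 24 of 50 cells, and with Sct in 2, 9 and 26. At P7, 10 of the 19 Cartpt cells passed for Tph1 and 11 for Sct, and 0 for Cck. Over all enteroendocrine cells of P7, Tph1 passed in 23.3%, Sct in 52.6% and Cck in 35.3%. The Sct share of the Tph1 cells at P7, 52.0%, lay beside 52.6% of all enteroendocrine cells, and the Tac1 share, 48.0%, beside 22.8%.

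**Figure D3:**
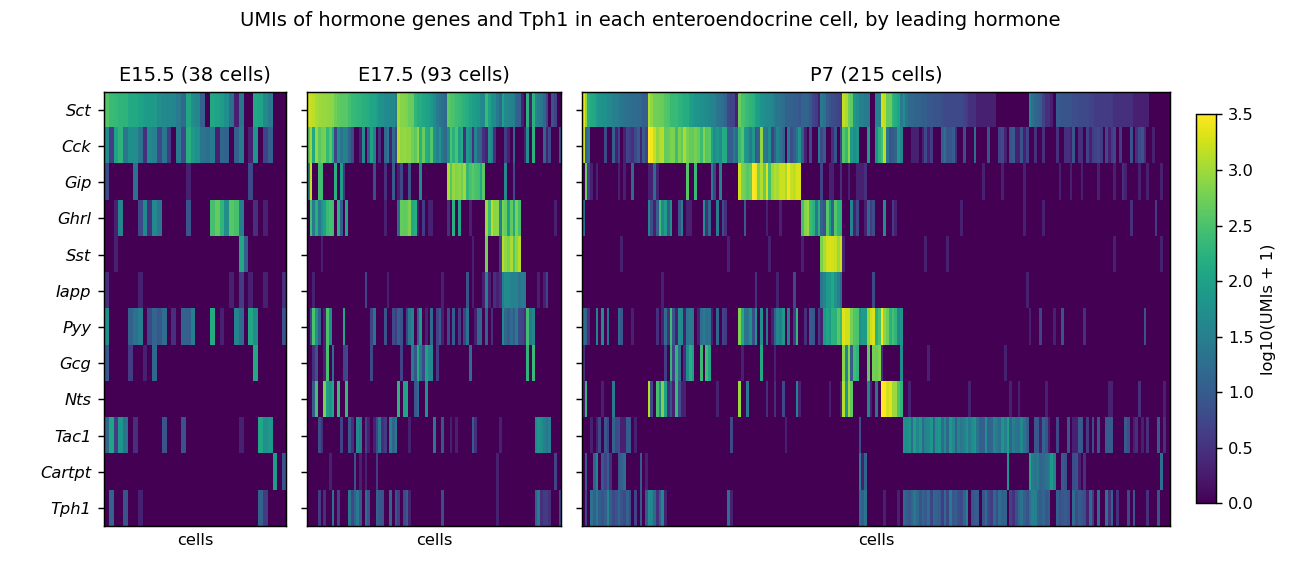
UMIs of 11 hormone genes and Tph1 (rows) in every enteroendocrine cell (columns) of E15.5 (38 cells), E17.5 (93) and P7 (215), as log10(UMIs + 1), with cells ordered by the hormone gene that leads. Gip, Sst and Tac1 lead in 0, 2 and 3 cells at E15.5 (0%, 5.26% and 7.89%). At P7 they lead in 23, 8 and 46 cells (10.7%, 3.72% and 21.4%).

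Each cell was also given a leading hormone, the one with most UMIs if that was at least 10. Sct led in 17, 33 and 24 cells, which is 44.7%, 35.5% and 11.2%. Cck led in 5, 18 and 33 (13.2%, 19.4% and 15.3%) and Gip in 0, 14 and 23 (0%, 15.1% and 10.7%). Ghrl led in 6, 6 and 7 (15.8%, 6.45% and 3.26%) and Sst in 2, 7 and 8 (5.26%, 7.53% and 3.72%). Pyy led in 1, 2 and 12 (2.63%, 2.15% and 5.58%) and Nts in 0, 0 and 8 (3.72% at P7). Tac1 led in 3, 6 and 46, or 7.89%, 6.45% and 21.4%, and Cartpt in 1, 0 and 10. The leading hormone filled a median of 23.1% of a cell's UMIs in Sst cells at P7 and 18.8% in Gip cells, but 0.390% in Tac1 cells and 0.720% in Sct cells.

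Groups of cells by leading hormone, pooled over the ages, differed in genes other than the hormone that led. Ppy and Gcg, given below for the Pyy cells, are hormone genes that the grouping compared. Genes given without a value for the other cells are counts only. These are descriptions within pooled libraries, and the ages are not evenly spread over the groups. The 17 Sst cells all had Hhex, a homeobox factor of somatostatin cells, against 2.13% of the other enteroendocrine cells, at 1006 against 7.30 CPM. Asic5, the bile acid-sensitive ion channel, was found in 10 of the 17, at 496 against 2.98 CPM. In the Sst cells Tph1 had 0 UMIs.

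The 37 Gip cells all had Fabp5, a fatty acid binding protein, at 4205 against 305 CPM in the other cells. Nnat, an imprinted gene for a small membrane proteolipid, was found in 30 of them, at 937 against 99.8 CPM, and Pdk4, a kinase that restrains glucose oxidation, in 24, at 147 against 9.86 CPM. Cnr1, the cannabinoid receptor, was in 33 of the 37. Tph1 had 0 UMIs in them.

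The 55 Tac1 cells had Rab3c, a small GTPase of secretory vesicles, in 53, at 626 against 93.7 CPM. Gstt1, a glutathione transferase, was in 40, at 523 against 57.1 CPM. Of transcription factors, Lmx1a was found in 40 of the 55 and Mnx1 in 28, whereas Isl1 was found in 3, against 171 of the other 291 cells, and Tph1 in 51. Trpa1, the irritant channel of enterochromaffin cells, was in 23.

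The 56 Cck cells had the factor Onecut3 in 30, at 259 against 43.4 CPM, Isl1 in 42 and the fatty acid receptor Ffar1 in 33. In the 15 Pyy cells Ppy had 7998 against 0.821 CPM, but in 3 cells, and Gcg was in 9. The 11 Cartpt cells had Tph1 in 8 and Isl1 in 0. In the Ghrl, Sct and Cartpt groups the genes with the largest ratios came from few cells: S100a9 from 1 of 19 Ghrl cells, 98.0% of the acinar gene Ctrb1 from 1 of 74 Sct cells, and Vip from 3 of 11 Cartpt cells, the number of Cartpt cells with neuron RNA.

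Against the other Epcam cells of the same library, genes of the secretory granule stood out at every age. This is a description, since the rule chose the cells on granule genes. At least 4-fold higher in enteroendocrine cells were 16 of 16, 21 of 21 and 21 of 23 granule and prohormone genes that could be compared, besides the chromogranins, and 19 of 20, 19 of 23 and 18 of 26 endocrine transcription factors. Of hormone genes, 10 of 10, 13 of 13 and 13 of 16 were. Over all genes 3.04%, 3.57% and 2.41% were 4-fold higher and 0.83%, 0.515% and 0.0914% lower. Besides 7 hormone genes, the 20 genes with the highest smallest ratio over the 3 libraries were Neurod1, Cpe, Pcsk1, Hmgn3, Isl1, Map1b, Scgn, Scg3, Fev, Etv1, Aplp1, Hepacam2 and Cacna2d1. Hepacam2 was abundant in goblet-type cells too, at 273, 378 and 247 CPM in enteroendocrine cells and 304, 343 and 310 CPM in goblet-type cells. Scgn, the calcium sensor secretagogin, had 338, 223 and 161 CPM in enteroendocrine cells against 1.73, 0.730 and 0.438 CPM in other Epcam cells.

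Few endocrine transcription factors passed 2-fold between ages. Of 22, 0 rose and 1 fell at E17.5 relative to E15.5, beside 5.93% higher and 2.42% lower among all genes, with a median log2 ratio of -0.30. Of 25, 2 rose and 2 fell at P7 relative to E17.5, beside 4.98% and 2.29%, with a median of -0.29. Counts this near the shares of all genes say nothing particular of the factors. Tox3, an HMG-box factor, stood at 473, 203 and 135 CPM. Its call at E17.5 was lost when the libraries were scaled by the median ratio of genes, which shifts that step by -0.25, and when cells with other RNA were left out. Under that scaling 88.1% of the genes called at this step were higher, against 71.0% by total counts. Neurod1, which drives endocrine maturation, was found in 94.7%, 83.9% and 83.3% of cells at 576, 496 and 403 CPM, and did not reach 2-fold at either step.

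Neurog3, the factor that starts the lineage, stood at 291, 177 and 62.7 CPM, in 31.6%, 11.8% and 9.77% of the cells, and fell at P7. Isl1, a LIM homeobox factor, stood at 592, 410 and 182 CPM, in 81.6%, 71.0% and 35.8% of cells, and fell at P7 as well. Neurod2 rose to 31.1 CPM at P7, against 3.04 at E17.5, and Egr3, an immediate early factor, to 38.1 against 6.07 CPM. Lmx1a, a factor of serotonin cells, stood at 20.6, 34.4 and 60.1 CPM and did not reach 2-fold at either step. Pax6 (295, 182 and 101 CPM) and Sox4 (164, 237 and 328 CPM) did not either.

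Most cells with Neurog3 lay outside the rule. At least 2 Neurog3 UMIs were found in 41, 33 and 48 cells of the libraries, of which 40, 32 and 48 passed for Epcam and 11, 9 and 15 were enteroendocrine cells. The 29, 23 and 33 Epcam cells with Neurog3 outside the rule had a median of 0 chromogranin UMIs. Ghrl stood at 8427, 239 and 58.2 CPM in them, and Sox4 at 725, 1524 and 1551 CPM. In the Neurog3 cells inside the rule, Ghrl had 5463, 30236 and 2561 CPM and Sox4 146, 277 and 760 CPM. Neurog3 cells outside the rule thus held Ghrl RNA at E15.5 and little at the later ages.

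Dll3, a Notch pathway ligand, stood at 87.8, 28.3 and 3.89 CPM in enteroendocrine cells. It fell at E17.5, also under median scaling, without cells that carried other RNA and without Scrublet-marked cells, and was too low to compare at P7. It was the 1 gene called of 4 early fate genes, beside 2.42% lower among all genes, and 0 of 7 were called at P7. The cell cycle inhibitor Cdkn1a was abundant, at 736, 570 and 467 CPM against 114, 89.2 and 103 CPM in other Epcam cells. Of 25 cell cycle genes 4, 1 and 0 were at least 4-fold lower in enteroendocrine than in other Epcam cells, beside 0.83%, 0.515% and 0.0914% of all genes. Between ages, Ube2c, of 10 that could be compared, rose at E17.5 and Mki67, Pcna and Mcm3 fell, of which Mcm3 alone was called under median scaling, and 0 of 20 were called at P7. Among all genes 5.93% rose and 2.42% fell at E17.5. The rise of Ube2c was not called without cells that carried other RNA, where 3 of 3 genes fell, and its log2 ratio was -0.49 without Scrublet-marked cells, where 5 of 5 fell. Without cells that carried other RNA 7 of 18 rose at P7, and without Scrublet-marked cells 8 of 21. The share of all genes under these settings is not given, so these counts have no background.

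A few granule genes passed 2-fold at each step. Scg2, a secretogranin, rose to 644 CPM at E17.5, against 63.5 at E15.5, and stood at 345 CPM at P7. Rab3c rose to 132 CPM at E17.5, against 59.8 at E15.5, and stood at 239 CPM at P7. These were the 2 called of 21 granule genes at E17.5, beside 5.93% higher among all genes, and the list's median was 0.41. Under median scaling 5 of 21 rose, without cells that carried other RNA 6 of 20, and without Scrublet-marked cells 4 of 20, Rab3c not among them. Median scaling raises the ratios of all genes at this step. No share of all genes is given for these 3 settings, so the larger counts are not read as a result of the list. At P7, 3 of 23 rose, beside 4.98% among all genes, with medians of 0.05 and 0.16. Pcsk1n, the proSAAS inhibitor of prohormone convertase, stood at 921 against 211 CPM, Resp18, a granule protein, at 189 against 55.6 CPM and Snap25, a membrane fusion protein, at 166 against 70.8 CPM. Pcsk1n and Resp18 were called under these 3 alternatives as well, and Snap25 was not called when cells with other RNA or Scrublet-marked cells were left out. None of the 23 fell, but Scg2 did when cells with other RNA were left out. Pcsk1, the convertase that cuts most gut prohormones, stood at 243, 236 and 324 CPM, and Pcsk2, the convertase of alpha-cell glucagon, at 18.7, 16.2 and 34.2 CPM in 2, 7 and 17 cells.

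**Figure D4:**
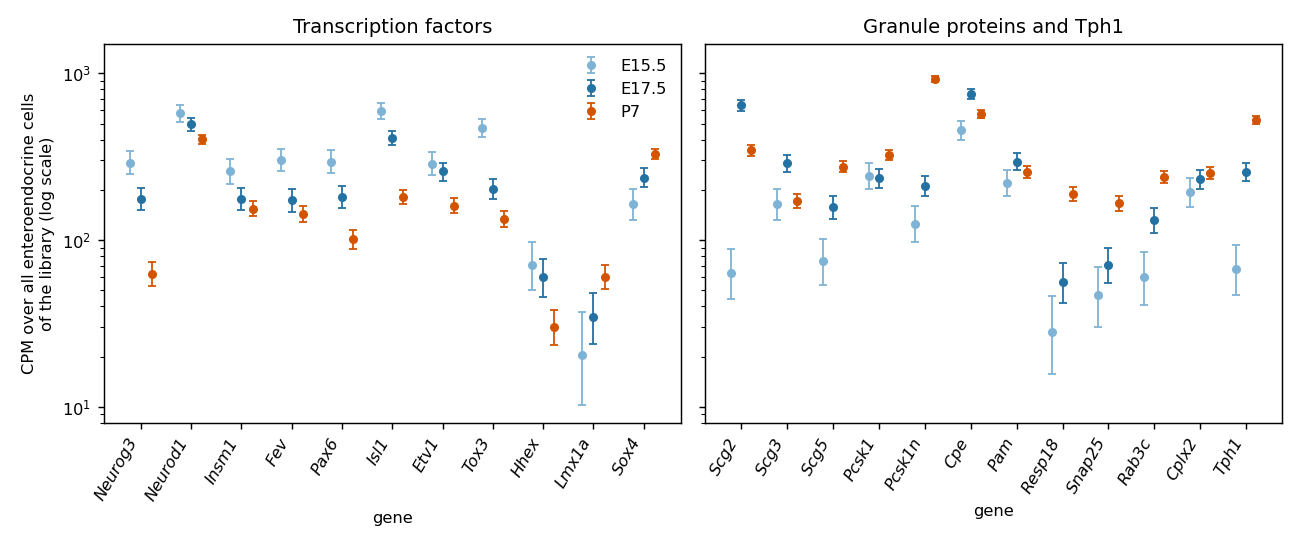
CPM over all enteroendocrine cells of a library (y axis, log scale) for 11 transcription factors (left) and 11 granule genes with Tph1 (right) at E15.5, E17.5 and P7, with exact 95% Poisson intervals. Isl1 goes down over 592, 410 and 182 CPM, while Pcsk1n goes up over 125, 211 and 921 CPM.

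Of 7 serotonin genes, Tph1 was the 1 that rose at either step, beside 5.93% and 4.98% higher among all genes. It stood at 67.3, 257 and 526 CPM, a log2 ratio of 1.79 at E17.5 and 1.01 at P7, and the P7 call, at the edge of the limit, was lost under median scaling, without cells that carried other RNA and without Scrublet-marked cells. Ddc, the decarboxylase that completes serotonin, was steady at 370, 423 and 434 CPM, and Slc18a1, which loads serotonin into granules, stood at 84.1, 138 and 150 CPM.

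Nutrient and hormone receptors were few in UMIs. At E17.5, beside 5.93% higher among all genes, 5 of the 7 that could be compared rose, with a median of 1.28. They were Ffar1 (107 against 44.8 CPM), Cnr1 (79.9 against 24.3), the galanin receptor Galr1 (32.4 against 7.47), the glucose transporter Slc5a1 (45.5 against 9.34) and Asic5 (34.4 against 0 CPM, at least 6.14-fold). Without cells that carried other RNA 3 could be compared and Ffar1 and Cnr1 were called. Slc5a1 is also an enterocyte gene, at 85.6 CPM in other Epcam cells of E17.5, and 37.8% of its enteroendocrine UMIs there were in 1 cell. At P7, beside 4.98% higher among all genes, 1 of 9 rose, Trpa1, at 64.0 against 11.1 CPM. The short-chain fatty acid receptor Ffar2 was the most abundant of the list at E15.5, at 280, 192 and 192 CPM, and was not called at either step. It was shared with goblet-type cells, at 85.7, 157 and 228 CPM, against 13.3, 7.87 and 2.44 CPM in other Epcam cells. Of 9 ion channel genes, Abcc8, the sulfonylurea receptor of the ATP-sensitive potassium channel, fell to 57.1 CPM at P7, against 165 at E17.5, and 0 of 6 were called at E17.5. Among all genes 2.29% were 2-fold lower at P7.

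**Figure D5:**
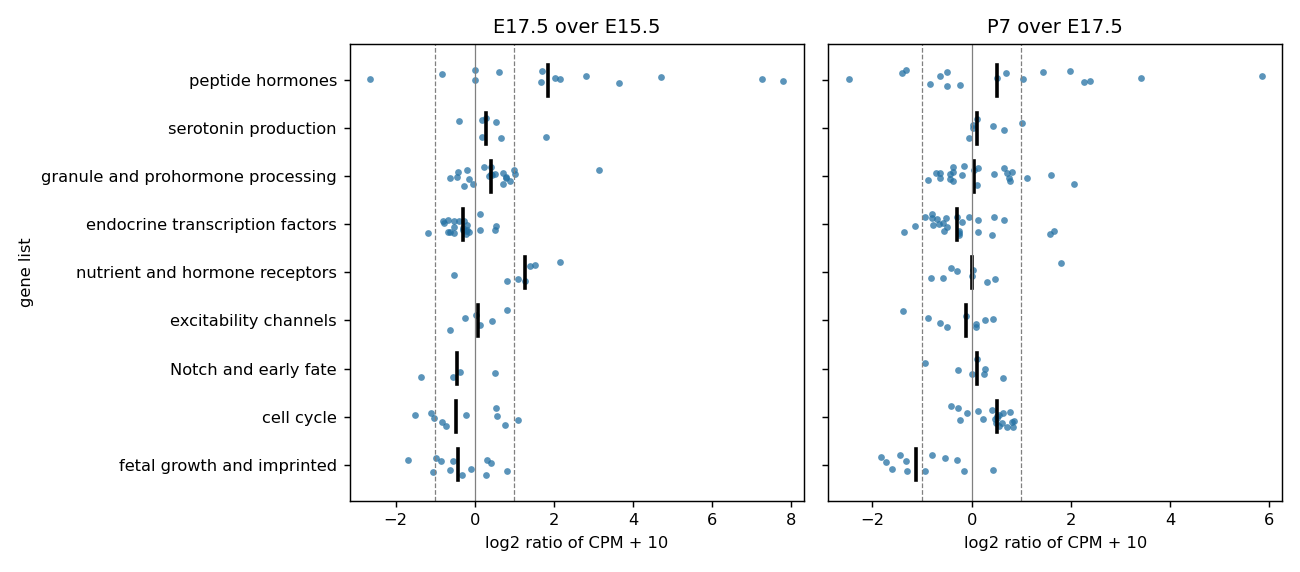
Log2 ratio of CPM + 10 (x axis) of each gene that could be compared, by gene list (rows), for E17.5 over E15.5 (left) and P7 over E17.5 (right), with the list's median as a black bar and dashed lines at 2-fold. Of the 9 lists plotted, the hormone row has the highest median at E17.5, 1.86, and the fetal growth row the lowest at P7, -1.11. Lists not plotted lay beyond these: enterocyte (3.34) and goblet genes (2.05) at E17.5, and goblet genes (-1.56) at P7.

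Of 12 genes of fetal growth H19 and Hmga2 fell at E17.5, beside 2.42% lower among all genes, with a median log2 ratio of -0.44. At P7 Igf2, H19, Dlk1, Meg3, Grb10 and Igf2bp1 fell, beside 2.29%, with a median of -1.11, and 0 of 12 rose at either step. Meg3, an imprinted long RNA, stood at 1074, 1304 and 519 CPM, in 92.1%, 82.8% and 33.5% of cells, and Grb10, an imprinted growth inhibitor, at 194, 94.1 and 32.4 CPM. Igf2 stood at 226, 121 and 29.8 CPM, and in other Epcam cells at 546, 316 and 39.6. H19 stood at 747, 354 and 92.99 CPM, with 43.4% of the E17.5 UMIs in 1 cell, and its fall at E17.5 was not called under median scaling or without Scrublet-marked cells. Mesenchyme genes summed to 783, 2254 and 508 CPM in the enteroendocrine cells, and their part in these falls was not tested beyond leaving out cells with other RNA. Then 5 of 10 fell at E17.5, Igf2, H19, Grb10, Igf2bp3 and Hmga2, with a median of -0.79, and 4 of 9 fell at P7, Igf2, Meg3, Grb10 and Igf2bp1, with a median of -0.74. Peg3, another imprinted gene, was 688, 643 and 439 CPM against 127, 34.7 and 8.03 CPM in other Epcam cells and was not called.

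Lists of other epithelial genes and of dissociation stress moved with age in the enteroendocrine cells. Among all genes 5.93% rose and 2.42% fell at E17.5, and 4.98% rose and 2.29% fell at P7. These shares hold for the reported setting. None is given for the alternatives below, whose counts thus have no background. Immediate early and stress genes summed to 3418, 4590 and 7168 CPM in the enteroendocrine cells. In goblet-type cells these genes summed to 2129, 4558 and 6396 CPM, and in other Epcam cells to 2416, 2338 and 3357 CPM. In enteroendocrine cells 5 of 14 rose at each step, Fos, Fosb and Atf3 at both, while Hspa1a fell at P7. Without cells that carried other RNA, 3 of 10 rose at E17.5 and 9 of 13 at P7, and Hspa1a was not called. Under median scaling 10 of 14 rose at E17.5. Enterocyte genes summed to 400, 6624 and 11687 CPM in enteroendocrine cells, against 4548, 15902 and 44135 CPM in other Epcam cells. Of these, 8 of 9 rose at E17.5 and 8 of 12 at P7, and without cells that carried other RNA 3 of 6 and 4 of 10. Some of those cells were chosen for their enterocyte RNA, so the lower counts follow in part from that choice. Without Scrublet-marked cells 3 of 12 rose at P7, Alpi, Cym and Lgmn, and Fabp1 fell. Of 4 goblet genes that could be compared, Agr2, Spink4 and Fcgbp rose at E17.5, and Tff3, Spink4 and Fcgbp fell at P7. Fcgbp was called at neither step without Scrublet-marked cells. Of 7 crypt stem genes 5 rose at P7, Lgr5, Olfm4, Axin2, Slc12a2 and Rnf43, and these genes together were at 951 and 75.9 CPM in P7 and E17.5 enteroendocrine cells, against 1357 and 289 CPM in other Epcam cells. The part of RNA from neighbouring cells in these values was not tested beyond leaving out the cells named above.

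The genes that moved most at each step, by a fixed rule, were partly those of other cells. At E17.5 the 10 highest ratios were those of Gip, Rbp2, Fabp1, Actg2, Mylk, Gm10260, Acta2, Iapp, Ambp and Fabp2. Fabp1 and Rbp2, absorptive cell genes, were at 2173 and 1172 CPM at E17.5, but at 5131 and 2242 CPM in other Epcam cells, and 60.6% and 43.9% of the enteroendocrine UMIs were in 1 cell. The muscle genes Actg2, Mylk and Acta2 were not called once cells with other RNA were left out, and Fabp2 was not either. Those cells were chosen in part on the mesenchyme and enterocyte lists, which hold Acta2 and Fabp2. The loss of these calls thus follows in part from that choice. Ambp, a plasma protein precursor, was at 26.2, 383 and 259 CPM in 9, 50 and 85 enteroendocrine cells, against 20.6, 1.14 and 2.41 CPM in other Epcam cells. It was called without those cells too.

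Among the 10 lowest at E17.5 were Prom1, Hist1h2ap, Eef1e1, Hmga2, Nefl, Mdk, Cldn6, Hsph1 and Btbd17. Mdk, the growth factor midkine, was at 983, 305 and 47.1 CPM, in 34, 54 and 32 cells, and at 249, 54.0 and 7.88 CPM in other Epcam cells. Btbd17 was at 136, 41.5 and 21.6 CPM against 2.09, 1.46 and 0.321 CPM in other Epcam cells, and Nefl, a neurofilament gene, at 108, 27.3 and 15.1 against 2.60, 0.324 and 0.118 CPM. The claudin gene Cldn6 was at 82.2, 21.2 and 4.76 CPM in 22, 16 and 11 enteroendocrine cells. Eef1e1 and Nefl were not called without cells that carried other RNA.

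At P7 the 10 highest were Olfm4, Cym, Pigr, Fbp1, Gm43305, Hbegf, Guca2a, Lgmn, Fcgrt and Lgals9. Of these, 9 were higher in other Epcam cells of P7 than in enteroendocrine cells. The crypt gene Olfm4 had 662 against 959 CPM and the neonatal Fc receptor Fcgrt 377 against 1911 CPM. The exception was Pigr, the transporter of antibodies across epithelium, with 274 CPM in 109 of 215 enteroendocrine cells against 241 CPM in the other Epcam cells, and 6.07 CPM in 4 of 93 enteroendocrine cells at E17.5. Of the 10, Guca2a and Lgmn were not called once cells with other RNA were left out. Lgmn is on the enterocyte list by which some of those cells were chosen.

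The 10 lowest at P7 were Serpina1c, Serpina1e, Actg2, Gm10260, Clps, Serpinh1, Mylk, Tpm2, Cwc22 and Hba-a1. Actg2, Serpinh1, Mylk and Tpm2 were not called once cells with other RNA were left out, and 54.5% of the Hba-a1 UMIs at E17.5 were in 1 cell. Serpina1c, of the alpha-1-antitrypsin family, had 265, 553 and 0.433 CPM, in 25, 71 and 1 enteroendocrine cells, and Serpina1e 76.6, 238 and 0 CPM. The P7 library held 11 UMIs of Serpina1c and 0 of Serpina1e in all its cells. The copies of this family are near-identical, so their counts are uncertain. Whether the libraries came from 1 strain is not stated. Serpina1b, another copy, stood at 120, 270 and 47.6 CPM in enteroendocrine cells. Clps, the pancreatic lipase cofactor colipase, was at 1400, 1144 and 136 CPM, in 30, 72 and 59 enteroendocrine cells, and at 621, 30.4 and 41.3 CPM in other Epcam cells and 974, 1178 and 1635 CPM in goblet-type cells. The list of acinar genes, which does not hold Clps, summed to 430, 65.8 and 70.1 CPM in enteroendocrine cells.

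Gm10260 and Cwc22 moved in the other Epcam cells too. Cwc22, a splicing factor, was at 20.6, 222 and 23.8 CPM in enteroendocrine cells and at 140 CPM at E17.5 and 19.1 CPM at P7 in other Epcam cells. Gm10260, whose sequence resembles a ribosomal protein gene so that its reads are uncertain, was at 0, 142 and 0.433 CPM in enteroendocrine and at 2.44, 221 and 0.246 CPM in other Epcam cells.

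A single insulin-rich cell was found, in the E17.5 library. It held 3097 UMIs of Ins1 and 4327 of Ins2, 44.3% of its 16753 UMIs, and 427 of Iapp. It also had 76 UMIs of Chga, 15 of Chgb and 23 of Pcsk2, and 6 of Pdx1, 4 of Nkx6-1, 3 of Mafa and 9 of the glucose transporter gene Slc2a2, which are beta cell genes. With 1 Epcam UMI it did not meet the rule and is not among the 93 cells. It had 1 Sct UMI and no Gcg or Sst UMI. The whole library held 3113 Ins1 and 4396 Ins2 UMIs, so nearly all lay in that cell. The next cell by insulin had 9 Ins2 and 34 Iapp UMIs and 2 Epcam UMIs, and the next, an enteroendocrine cell by the rule with 3 Epcam UMIs, had 5 Ins2 and 24 Iapp UMIs. In that order, these cells also held 9 and 5 UMIs of Pdx1, 5 and 2 of Nkx6-1 and 13 and 5 of Pcsk2. Mafa and Slc2a2 were at 0 in both. A cell with some of these beta cell genes is thus among the 93. At E15.5 and P7 the whole libraries held 0 UMIs of Ins1 and 15 of Ins2 each, and the acinar gene Ctrb1 was at 0 in the insulin-rich cell.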

How the data were processed

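Gene-by-cell tables of UMI counts, whole numbers that were not normalized, were used as deposited for 3 libraries. The authors made them with Cell Ranger 7.2.0 on mm10 (GRCm38), per the submitters' processing notes. No replicate exists, so no test was run. The enteroendocrine cells and the gene lists were chosen with earlier results of these data known. Counts were summed over the cells of a group and divided by their total (CPM), with exact Poisson or Clopper-Pearson 95% intervals for counting error. Log2 ratios are of CPM + 10, for genes with at least 30 UMIs in the higher group, and a gene was called at 2-fold between ages or 4-fold over other Epcam cells. Counts of list genes under other settings are given without the share of all genes under those settings. The libraries held 93501273, 94023160 and 116038115 UMIs, and 1866, 1331 and 1952 of 22100 symbols had no count. Scrublet in scanpy 1.11.5 (expected rate 6%) marked 243, 453 and 389 cells, which were kept and left out as an alternative. Genes named beyond the lists were the 20 with the highest smallest ratio over other Epcam cells, the 10 highest and 10 lowest per step found in at least 25% of the cells of the higher library, and 5 per leading hormone with at least 10 cells. Other genes, such as further members of the lists and Serpina1b, were named after their values were seen. Some genes that the rule or the lists hold are not reported here. Ratios were tested on simulated counts with known changes. Python 3.11.15, numpy 2.4.6, scipy 1.17.1 and matplotlib 3.10.9 were used.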

Additional observations from a re-analysis of the deposited data

How the results depend on the processing

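No paired analysis was possible because each age is 1 library and no test was run. Leaving out cells with RNA of other types was an alternative chosen after seeing the data. The enteroendocrine share of Epcam cells was 1.60%, 3.26% and 2.37% when all cells were thinned to 4000 UMIs, 4.35% at E17.5 and 2.81% at P7 without cells that carried other RNA, and 4.04% at P7 with Epcam at 1 UMI, while 15 other values stayed within their intervals. Cells with at least 2 hormones were 75.8% at P7 with a limit of 5 UMIs. Genes that rose at E17.5, 260 in the values reported, numbered 86 with a pseudocount of 50 CPM, 434 without the filter on low counts and 159 without other RNA. Those that fell, 106 as reported, numbered 177 with a pseudocount of 1 CPM, 33 with 50 CPM, 47 scaled by the median ratio and 227 without the filter. At P7 the genes that rose, 383 as reported, numbered 793 with a pseudocount of 1 CPM and 82 with 50 CPM, and those that fell, 176 as reported, 63 with 50 CPM and 108 without other RNA. Genes 4-fold higher than in other Epcam cells numbered 510 against 298 at E17.5 and 818 against 264 at P7 with a pseudocount of 1 CPM. Of 180 list medians, 172 moved by less than a factor of 1.5 and 4 turned sign. The granule list at P7 (0.05) came to -0.0030 with cells weighted equally and, over the same 23 genes, -0.19 without other RNA (0.01 over the 21 that then passed the filter), the early fate list (0.11) to -0.13 with at least 10 chromogranin UMIs, and the receptors (-0.00) to 0.19 with cells weighted equally. Of 216 hormone shares under other settings 187 stayed within their intervals. The cause of these changes was not tested, apart from the pseudocount and filter, which by construction set how many low genes can pass.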
